A study of Mus musculus with 20 samples.

Results

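The genes described here make prostanoids or receive their signal, and were followed across mouse abdominal aortas given angiotensin II (Ang II) or saline. They were 10 named genes: the cyclooxygenases Ptgs1 and Ptgs2, the terminal synthases Ptgis, Tbxas1, Ptges and Ptgds, and the receptors Ptgir, Ptgfr, Ptger3 and Ptger4. Their annotated transcripts were picked by gene symbol, and the transcript values were added up per gene. The 10 genes themselves were chosen with earlier results of these data known. Of 37 annotated transcripts of the 10 genes, 18 were listed, and they belonged to 9 genes. Those 9 were among 15332 genes listed and 12635 genes tested. Ptgds, the lipocalin-type prostaglandin D synthase, had 0 of its 5 annotated transcripts listed and has no value here. In the wild-type tables the lowest transcript had a higher group mean of 0.50002 FPKM, so a gene without a listed transcript may lie under that level. Transcripts that the authors assembled were assigned to no gene, so such a gene may also be among them at any level.

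The series has 20 libraries in 4 groups of 5, and its title names DAPK1, a calcium- and calmodulin-dependent kinase, in hypertension. The groups compared were abdominal aortas labelled KO from mice infused with 500 ng of Ang II per kg per min (KO Ang II), wild-type aortas infused with the same dose (WT Ang II) and wild-type aortas infused with saline (WT saline). No allele, strain, age, sex or infusion time is given in the labels, nor whether the knockout is in all cells, and each library carries the number of 1 animal. The 5 aortas labelled KO and given saline were not analysed here, since 0 member transcripts are among the 2025 in their table, and their description calls them WT while the title and genotype call them KO.

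Prostanoids are lipids made from arachidonic acid. Cyclooxygenases turn it into prostaglandin H, and terminal synthases turn that into prostacyclin, thromboxane or one of the prostaglandins, which act on G protein-coupled receptors of nearby cells. In arteries prostacyclin relaxes smooth muscle and restrains platelets through a receptor that raises cyclic AMP, thromboxane constricts, and prostaglandin E can do either, depending on which of its receptors is present.

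The depth, worked out from the step between low values, was 70.1 to 73.5 megareads in KO Ang II, 59.0 to 74.4 in WT Ang II and 62.8 to 67.1 in WT saline libraries. Dapk1 RNA was 4.997 to 13.8 FPKM in KO Ang II aortas, 3.96 to 19.9 in WT Ang II and 9.48 to 15.4 in WT saline, with a difference of -0.22 between KO and WT Ang II on the log2(FPKM + 1) scale (SE 0.32, limma adjusted p = 0.847). These ranges overlap, and the labels do not name a deleted exon. Smooth muscle markers, 8 of 8 measured, summed to 5613 to 10185 FPKM in KO Ang II, 7018 to 14619 in WT Ang II and 5744 to 12973 in WT saline. Of 8 intestinal markers, the 7 that the tables of all 3 groups list summed to 19.9 to 47.3 FPKM in KO Ang II, 0.214 to 16.7 in WT Ang II and 0.243 to 0.909 in WT saline, so they separated KO Ang II from both other groups. Within WT Ang II, WTAngII580 and WTAngII581 were at 16.0 and 16.7 FPKM and the other libraries at 0.214 to 0.383. Of 6 mesothelial markers, Upk3b, Lrrn4 and Krt8 were listed in the KO Ang II table alone and Msln and Wt1 in none. The remaining one, Krt19, was 0.967 to 2.55 FPKM in KO Ang II, 0.0408 to 1.01 in WT Ang II and 0 to 0.537 in WT saline, which overlapped between KO and WT Ang II and did not overlap between KO Ang II and WT saline. Megakaryocyte and platelet markers, 5 of 6 listed, summed to 24.7 to 42.2 FPKM in KO Ang II, 42.7 to 138 in WT Ang II and 25.7 to 47.0 in WT saline, so KO and WT Ang II did not overlap. The part of these lists in any comparison with KO Ang II was not tested.

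Prostacyclin synthase was the most abundant of the 9 genes per length. FPKM counts fragments per kilobase of a transcript after scaling for the size of the library, so levels can be compared between genes. Over the 15 aortas Ptgis averaged 35.7 ± 18.1 FPKM, followed by Ptgs1 at 14.7 ± 6.28 and Ptger3 at 12.2 ± 5.67 (SD, n = 15). Ptgis was above Ptgs1 in 13 of 15 aortas, and Ptgs1 above Ptger3 in 10 of 15. A gap then followed in these sums, since Ptger3 was above Ptger4 in 15 of 15 aortas. The sums include transcripts annotated as noncoding, and the retained intron form Ptger3-203 made up 31.1% to 56.2% of Ptger3. In WTAng_II536 the coding transcripts Ptger3-201 and Ptger3-202 were at 0.857 and 5.17 FPKM, against 7.59 FPKM for Ptger4. The order by coding transcripts alone was not worked out. Ptger4 averaged 3.01 ± 1.44 FPKM, Ptges 3.002 ± 1.74 and Ptgs2 2.87 ± 3.10, and these did not keep an order: Ptger4 was above Ptges in 7 of 15 aortas and Ptges above Ptgs2 in 10 of 15. Ptgir at 1.56 ± 0.534 FPKM, Tbxas1 at 1.42 ± 0.530 and Ptgfr at 1.41 ± 0.498 were lowest and lay within their spread of each other.

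**Figure D1:**
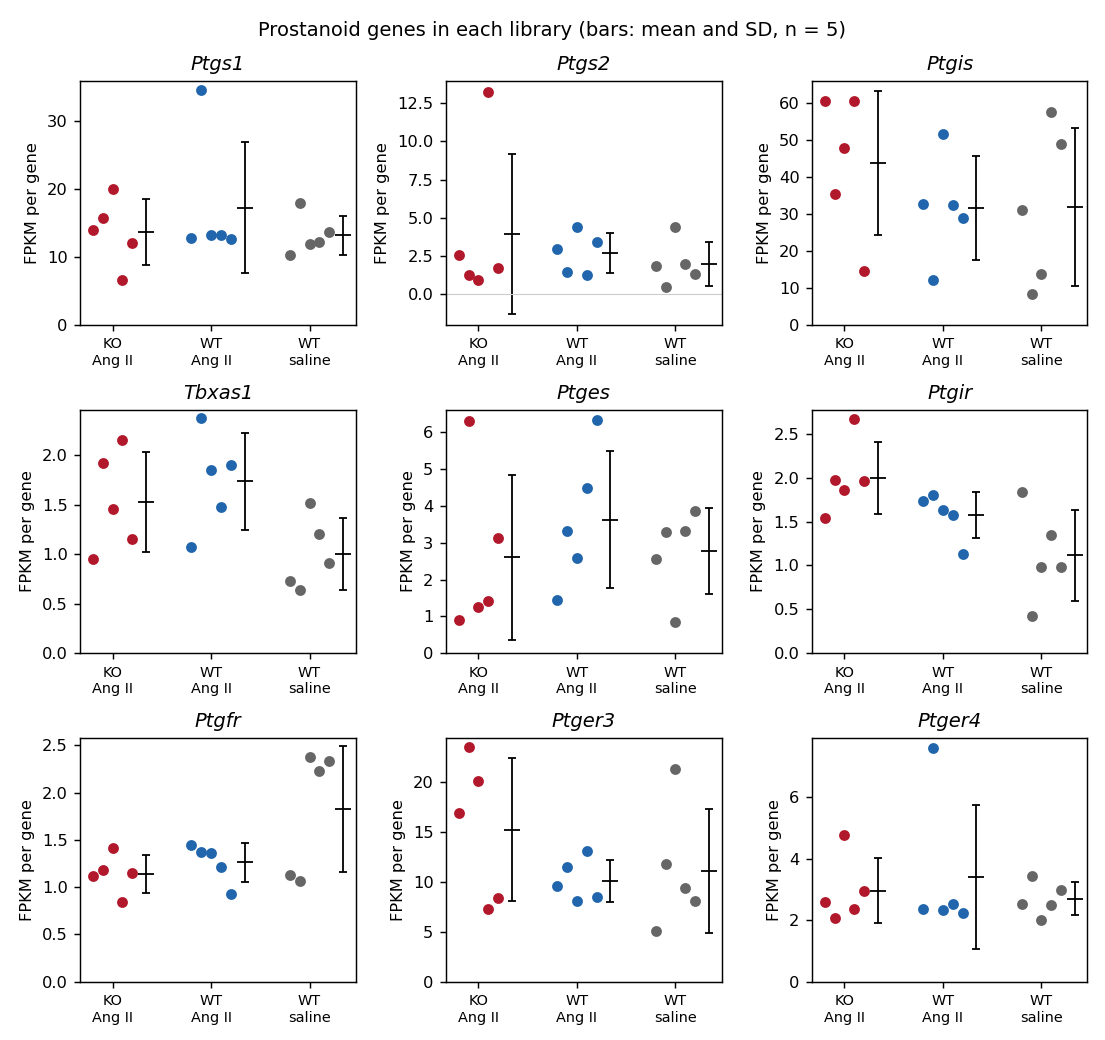
Level of each of the 9 prostanoid genes (y axis, FPKM summed over its transcripts) in each aorta, with KO Ang II in red, WT Ang II in blue and WT saline in grey; each point is 1 animal, and the bars give mean and SD (n = 5). The groups overlap in every panel, with single high aortas in Ptgs1 (34.5 FPKM), Ptgs2 (13.2 FPKM) and Ptger4 (7.59 FPKM).

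No prostanoid gene passed the test in any comparison. The test was limma on log2(FPKM + 1) over all genes, with an adjusted p under 0.05 as the threshold. Between KO and WT Ang II, 0 of 9 passed, against 0 of 12635 genes (0%), and 0 of 9 had an unadjusted p under 0.05, against 7.95% of genes. Between WT Ang II and WT saline, 0 of 9 passed, against 0 of 12635 genes (0%), and 1 of 9, Tbxas1, had an unadjusted p under 0.05, against 4.88% of genes. In KO Ang II against WT saline, 0 of 9 passed, against 13 of 12635 genes (0.103%), and 2 of 9, Ptgir and Ptgfr, had an unadjusted p under 0.05, against 8.38% of genes. A second tool, voom on reads worked out from the FPKM, also passed 0 of 9 in each comparison, with 0, 1 and 3 of the 9 at an unadjusted p under 0.05 in that order of comparisons. The groups of 5 overlapped for 9 of 9 genes in each comparison, while 1.12%, 0.997% and 1.83% of genes tested had groups that did not overlap. At the level of single transcripts 0 of 13 tested from these genes passed in each, against 0.00482%, 0.00964% and 0.0723% of 20755 transcripts.

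The 3 comparisons share samples: WT Ang II and WT saline aortas each enter 2 of them, as do KO Ang II aortas. The median difference of the 9 genes was -0.07 on the log2(FPKM + 1) scale between KO and WT Ang II, with 4 of 9 above 0, beside -0.01 over all genes with 48.6% above 0. It was 0.27 in WT Ang II against WT saline, with 7 of 9 above 0, beside 0.01 over all genes with 52.6% above 0. It was 0.33 in KO Ang II against WT saline, with 6 of 9 above 0, beside 0.02 over all genes with 52.6% above 0. The RNA comes from whole tissue, in which fewer cells of a type and less RNA per cell cannot be told apart.

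**Figure D2:**
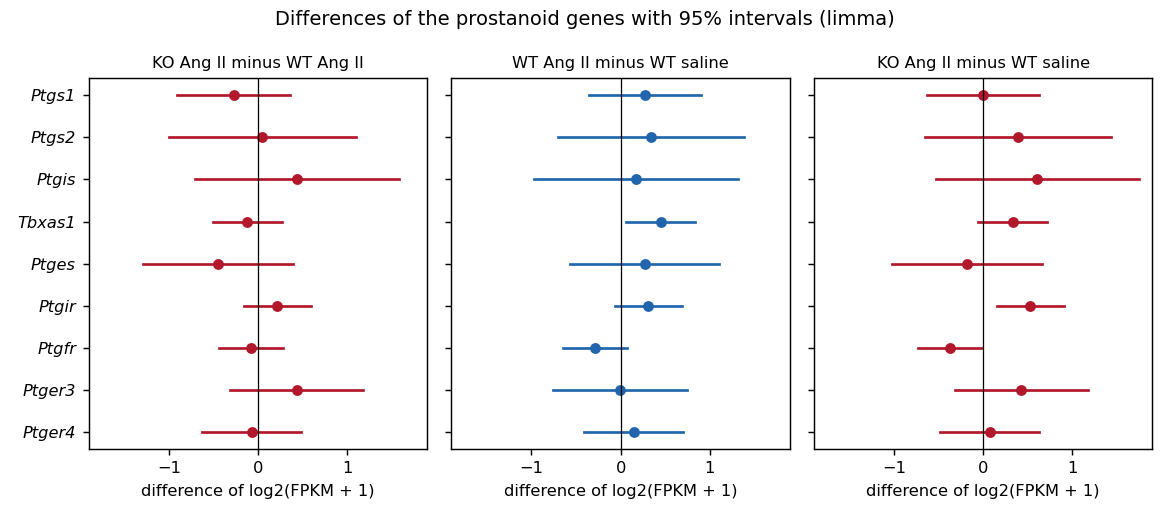
Difference of each prostanoid gene (rows) in log2(FPKM + 1) for KO Ang II minus WT Ang II, WT Ang II minus WT saline and KO Ang II minus WT saline (limma, 5 aortas per group); points are estimates and lines 95% intervals. The intervals of Ptgis and Ptgs2 are the widest, and those of Tbxas1 in the middle panel and of Ptgir and Ptgfr in the right panel do not reach 0, although none passed the adjusted threshold.

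The genes differed in how far animals of 1 group lay apart. The within-group SD on the log2(FPKM + 1) scale was 0.92 for Ptgis, 0.83 for Ptgs2, 0.66 for Ptges, 0.59 for Ptger3, 0.50 for Ptgs1 and 0.42 for Ptger4, all above the median of 0.35 over all genes tested. Tbxas1 at 0.27, Ptgir at 0.25 and Ptgfr at 0.24 lay under that median, and they are also the 3 genes with the lowest levels, where the added 1 FPKM shrinks differences.

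Ptgs1 (chr2:36230426-36252272, plus strand, GRCm38) encodes COX-1, the cyclooxygenase that many tissues express without a stimulus. It was 13.9, 15.7, 20.0, 6.66 and 12.1 FPKM in KO Ang II aortas (KOAng_II402, KOAngII537, KOAngII560, KOAngII612 and KOAngII628, the order kept for this group). It was 12.8, 34.5, 13.1, 13.2 and 12.6 FPKM in WT Ang II aortas (WTAng_II519, WTAng_II536, WTAngII568, WTAngII580 and WTAngII581), against 10.2, 17.9, 11.9, 12.1 and 13.6 FPKM in WT saline aortas (WTNS_369, WTNS_373, WTNS_523, WTNS_547 and WTNS_550). WTAng_II536 stood far above the other 4 WT Ang II aortas, which lay between 12.6 and 13.2 FPKM, and KOAngII612 was the lowest of all 15. The difference was -0.27 between KO and WT Ang II (95% interval -0.90 to 0.36, limma adjusted p = 0.783) and 0.27 between WT Ang II and WT saline (-0.36 to 0.90, adjusted p = 0.942). Without WTAng_II536 these became -0.003 and 0.003. The coding transcript Ptgs1-201 made up 80.8% to 86.6% of the sum in KO Ang II, 78.9% to 87.1% in WT Ang II and 74.1% to 83.9% in WT saline, and the other 3 listed transcripts are annotated as noncoding forms.

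Ptgs2 (chr1:150100031-150108227, plus strand) encodes COX-2, the inducible cyclooxygenase. It was 2.58, 1.26, 0.916, 13.2 and 1.74 FPKM in KO Ang II aortas. In WT Ang II aortas it was 2.93, 1.43, 4.37, 1.28 and 3.39 FPKM, against 1.82, 0.501, 4.38, 1.96 and 1.32 FPKM in WT saline aortas. KOAngII612, the lowest for Ptgs1, was the highest for Ptgs2 and was the only aorta of the 15 in which Ptgs2 exceeded Ptgs1. Its log2 ratio of Ptgs1 to Ptgs2, with 1 FPKM added to each, was -0.89. The median of that ratio was 2.25 in KO Ang II, 1.81 in WT Ang II and 2.15 in WT saline. The difference for Ptgs2 was 0.05 between KO and WT Ang II (95% interval -0.999 to 1.09, limma adjusted p = 0.985), and it was -0.45 without KOAngII612. Between WT Ang II and WT saline it was 0.34 (-0.70 to 1.39, adjusted p = 0.951), so these 5 aortas per group leave room for a difference of either sign. In the 15 aortas Ptgs1 and Ptgs2 ran against each other, with Pearson's r of -0.66 (adjusted p = 0.278) and Spearman's rho of -0.71 (adjusted p = 0.139) in permutation tests adjusted over 36 pairs of prostanoid genes, which did not pass.

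Ptgis (chr2:167191805-167240604, minus strand) encodes prostacyclin synthase. It was 60.6, 35.4, 47.7, 60.6 and 14.5 FPKM in KO Ang II aortas. WT Ang II aortas had 32.5, 12.2, 51.6, 32.4 and 28.8 FPKM, against 31.1, 8.27, 13.6, 57.5 and 48.8 FPKM in WT saline aortas. Low and high aortas occurred in every group, with libraries KOAngII628, WTAng_II536 and WTNS_373 lowest in theirs. The difference was 0.43 between KO and WT Ang II (95% interval -0.71 to 1.58, limma adjusted p = 0.809), 0.17 between WT Ang II and WT saline (-0.97 to 1.32, adjusted p = 0.971) and 0.61 between KO Ang II and WT saline (-0.53 to 1.75, adjusted p = 0.839). Intervals this wide include both no difference and one of more than 1 log2 unit.

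Ptgis had 2 coding transcripts, whose proportions differed between animals, and a retained intron form, Ptgis-203, at 0.443 to 1.33 FPKM in KO Ang II, 0.722 to 1.45 in WT Ang II and 0.345 to 1.79 in WT saline. Ptgis-203 made up 1.25% to 9.13% of the gene's sum in KO Ang II, 2.24% to 11.8% in WT Ang II and 2.09% to 9.06% in WT saline, and it lay above Ptgis-202 in every aorta except KOAng_II402, KOAngII537, WTNS_369 and WTNS_373. Ptgis-201 and Ptgis-202 are both annotated with 10 exons and differ in the last one. The sequences are shown because the split between these ends is what differs among aortas; lower case gives the last 21 bases they share and capitals the coding bases of each one's own last exon, from GENCODE M21 on GRCm38, 5′ to 3′ on the gene's strand.
Ptgis-201 (chr2:167203327-167203468): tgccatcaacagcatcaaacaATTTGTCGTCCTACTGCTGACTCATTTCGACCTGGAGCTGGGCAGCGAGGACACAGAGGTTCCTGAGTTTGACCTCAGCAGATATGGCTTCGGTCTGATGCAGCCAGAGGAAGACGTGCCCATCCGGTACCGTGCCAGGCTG
Ptgis-202 (chr2:167191820-167191985): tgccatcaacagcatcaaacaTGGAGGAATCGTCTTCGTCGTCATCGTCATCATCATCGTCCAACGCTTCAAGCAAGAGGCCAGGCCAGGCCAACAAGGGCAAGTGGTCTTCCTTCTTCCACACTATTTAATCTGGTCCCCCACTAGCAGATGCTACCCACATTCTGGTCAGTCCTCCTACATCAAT
The coding part is 1503 bases in Ptgis-201 and 1527 in Ptgis-202, and the last exon of Ptgis-202 lies further downstream. Ptgis-202 was 16.1, 17.2, 0, 0.517 and 0 FPKM in KO Ang II aortas and 0.122, 0.218, 0, 0 and 0 FPKM in WT Ang II aortas, against 10.6, 1.33, 0, 0.206 and 0 FPKM in WT saline aortas. It was therefore above 1 FPKM in 4 aortas, libraries KOAng_II402, KOAngII537, WTNS_369 and WTNS_373, and in 0 of 5 WT Ang II aortas. These 4 include all 3 libraries of the compared groups whose animal number is under 500; what the numbers stand for beyond the animal is not in the labels. In KOAngII537 Ptgis-202 was 48.5% of the gene's sum, the highest share. Between KO and WT Ang II it differed by 1.69 (SE 0.90, limma adjusted p = 0.712 over 20755 transcripts), which did not pass. Ptgis-201 alone was 43.6, 17.8, 47.1, 59.1 and 13.2 FPKM in KO Ang II aortas, against 31.0, 10.5, 50.4, 31.4 and 28.1 FPKM in WT Ang II aortas, a difference of 0.19 (SE 0.59, adjusted p = 0.951).

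**Figure D3:**
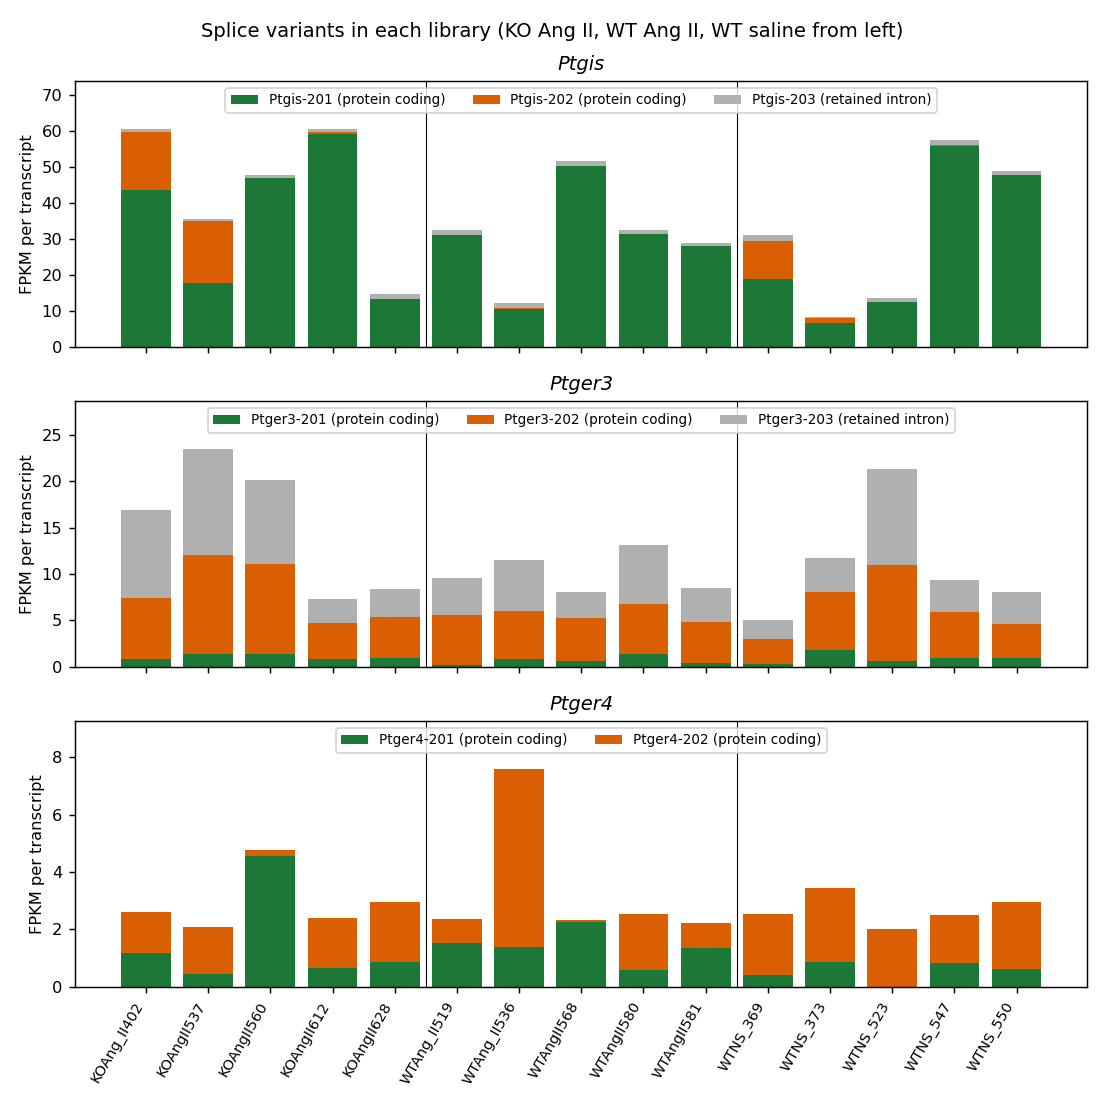
Level of each listed transcript (y axis, FPKM, stacked) of Ptgis, Ptger3 and Ptger4 in each aorta (x axis, library by animal number), with KO Ang II on the left, WT Ang II in the middle and WT saline on the right. Ptgis-202 is visible in 4 aortas, and Ptger3-202 and Ptger3-203 make up most of Ptger3 in every aorta. Ptger4-201 is the larger part of Ptger4 in libraries KOAngII560, WTAng_II519, WTAngII568 and WTAngII581.

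Tbxas1 (chr6:38875404-39084585, plus strand) encodes thromboxane A synthase, an enzyme of platelets and macrophages. It was 0.955, 1.92, 1.46, 2.15 and 1.16 FPKM in KO Ang II aortas. The WT Ang II aortas were at 1.07, 2.38, 1.85, 1.48 and 1.91 FPKM, against 0.728, 0.643, 1.52, 1.20 and 0.917 FPKM in WT saline aortas. Of the WT Ang II aortas, 3 lay above the highest WT saline aorta, WTNS_523, and the groups overlapped. The difference between WT Ang II and WT saline was 0.45 (SE 0.18, 95% interval 0.06 to 0.84) with an unadjusted p of 0.0269 and a limma adjusted p of 0.940. Macrophage markers, 10 of 10 measured, summed to 375 to 522 FPKM in WT Ang II and 242 to 362 FPKM in WT saline, which did not overlap, and to 269 to 552 FPKM in KO Ang II; their part in the Tbxas1 difference was not tested. The KO minus WT difference under Ang II was -0.12 (-0.51 to 0.27, adjusted p = 0.857), and KO Ang II differed from WT saline by 0.33 (-0.06 to 0.72, adjusted p = 0.686). The sum rests on a coding transcript, Tbxas1-201, and a retained intron form, Tbxas1-205. Tbxas1-201 alone was 0.186, 1.18, 0.692, 1.17 and 0.843 FPKM in KO Ang II aortas and 0.928, 1.32, 1.27, 0.648 and 1.33 FPKM in WT Ang II aortas, against 0.634, 0.120, 1.23, 0.738 and 0.524 FPKM in WT saline aortas. The log2 ratio of Ptgis to Tbxas1, the prostacyclin and thromboxane synthases, was taken with 1 FPKM added to each. Its median was 4.29 in KO Ang II, 3.75 in WT Ang II and 4.22 in WT saline. The ranges were 2.85 to 4.98, 1.97 to 4.20 and 2.50 to 4.73 in that order. Libraries KOAngII628, WTAng_II536 and WTNS_373 were lowest in their groups. The added 1 FPKM lowers this ratio, since Tbxas1 lay near that level.

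Ptges (chr2:30889471-30929863, minus strand) encodes the microsomal, inducible prostaglandin E synthase. It was 0.911, 6.30, 1.26, 1.43 and 3.13 FPKM in KO Ang II aortas. In WT Ang II aortas it was 1.44, 3.31, 2.58, 4.49 and 6.32 FPKM, against 2.57, 3.30, 0.837, 3.30 and 3.86 FPKM in WT saline aortas. In KO Ang II 3 of 5 aortas lay under the lowest WT Ang II aorta, while KOAngII537 was nearly as high as the highest. The difference was -0.45 between KO and WT Ang II (95% interval -1.29 to 0.39, limma adjusted p = 0.729), 0.27 between WT Ang II and WT saline (-0.57 to 1.11, adjusted p = 0.951) and -0.18 between KO Ang II and WT saline (-1.02 to 0.66, adjusted p = 0.941).

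Ptgir (chr7:16906490-16910905, plus strand) encodes the prostacyclin receptor. It was 1.54, 1.97, 1.86, 2.66 and 1.97 FPKM in KO Ang II aortas. WT Ang II aortas had 1.73, 1.80, 1.63, 1.57 and 1.13 FPKM, against 1.84, 0.429, 0.983, 1.35 and 0.983 FPKM in WT saline aortas. All but 1 WT saline aorta, WTNS_369, lay under the lowest KO Ang II aorta. The difference between KO Ang II and WT saline was 0.53 (SE 0.17, 95% interval 0.16 to 0.90), with an unadjusted p of 0.00862 and a limma adjusted p of 0.388, rank 281 of 12635 genes. It was 0.22 between KO and WT Ang II (-0.16 to 0.59, adjusted p = 0.703) and 0.31 between WT Ang II and WT saline (-0.06 to 0.68, adjusted p = 0.940). The fewest reads behind a Ptgir value were 89.0, in WTNS_373, and the most 647, in KOAngII612.

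Ptgfr (chr3:151796502-151837630, minus strand) encodes the prostaglandin F receptor, which couples to calcium release and contracts smooth muscle. It was 1.12, 1.18, 1.42, 0.847 and 1.15 FPKM in KO Ang II aortas. The WT Ang II aortas were at 1.45, 1.37, 1.36, 1.21 and 0.926 FPKM, against 1.13, 1.06, 2.37, 2.23 and 2.34 FPKM in WT saline aortas. The WT saline aortas lay apart from each other. Libraries WTNS_523, WTNS_547 and WTNS_550 were above each of the 10 Ang II aortas, and libraries WTNS_369 and WTNS_373 were within their range. WTNS_369 and WTNS_373 are also the WT saline libraries whose animal number is under 500. What the numbers stand for beyond the animal is not in the labels. The difference between KO Ang II and WT saline was -0.37 (SE 0.17, 95% interval -0.73 to -0.01), with an unadjusted p of 0.0436 and a limma adjusted p of 0.584. Between WT Ang II and WT saline it was -0.29 (-0.65 to 0.07, adjusted p = 0.940), and between KO and WT Ang II it was -0.08 (-0.44 to 0.28, adjusted p = 0.903). Across 21 or 22 alternative settings per comparison these differences of Ptgfr were below 0 in each.

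Ptger3 (chr3:157566892-157645888, plus strand) encodes EP3, a prostaglandin E receptor that mainly lowers cyclic AMP. It was 16.9, 23.5, 20.1, 7.27 and 8.43 FPKM in KO Ang II aortas. In WT Ang II aortas it was 9.57, 11.5, 8.09, 13.1 and 8.46 FPKM, against 5.04, 11.8, 21.4, 9.41 and 8.10 FPKM in WT saline aortas. Libraries KOAng_II402, KOAngII537, KOAngII560 and WTNS_523 were at 16.9 FPKM or more and the other 11 aortas at 13.1 or less. The difference was 0.44 between KO and WT Ang II (95% interval -0.31 to 1.18, limma adjusted p = 0.705) and 0.43 between KO Ang II and WT saline (-0.32 to 1.18, adjusted p = 0.819). With means of sympathetic neuron, brown adipocyte and skeletal muscle markers as covariates the first of these was -0.10 (SE 0.28, limma adjusted p = 0.974), the opposite sign. The second was above 0 in each of 21 alternative settings, these covariates included. Sympathetic neuron markers, 7 of 7 measured, summed to 4.13 to 715 FPKM in KO Ang II, 1.42 to 106 in WT Ang II and 3.95 to 380 in WT saline.

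The receptor's C-terminal tail is set by splicing, and the coding transcripts listed differ there. The sequences are shown because the 2 tails were present at unequal levels; lower case gives the last 21 bases they share and capitals the coding bases of each one's own tail, from GENCODE M21 on GRCm38. Ptger3-202 has an extra exon of 89 bases before the last exon and ends its coding part on the first base of that one (157643875).
Ptger3-201 (chr3:157643875-157643952): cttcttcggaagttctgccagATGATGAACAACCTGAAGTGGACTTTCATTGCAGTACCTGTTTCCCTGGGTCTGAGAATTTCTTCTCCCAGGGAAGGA
Ptger3-202 (chr3:157641721-157641809): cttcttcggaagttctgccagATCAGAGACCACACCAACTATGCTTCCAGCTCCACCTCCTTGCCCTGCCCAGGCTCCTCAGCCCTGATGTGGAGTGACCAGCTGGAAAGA
Ptger3-202 was 6.62, 10.7, 9.73, 3.95 and 4.35 FPKM in KO Ang II aortas and 5.42, 5.17, 4.68, 5.39 and 4.35 FPKM in WT Ang II aortas, against 2.73, 6.34, 10.3, 4.996 and 3.75 FPKM in WT saline aortas. Ptger3-201 was 0.775 to 1.36 FPKM in KO Ang II, 0.168 to 1.39 in WT Ang II and 0.276 to 1.76 in WT saline, and below Ptger3-202 in each of the 15. The third transcript, Ptger3-203, is annotated as a retained intron and not as coding, and it made up 34.6% to 56.2% of the Ptger3 sum in KO Ang II, 35.0% to 48.1% in WT Ang II and 31.1% to 48.6% in WT saline. Ptger3-202 alone differed by 0.34 between KO and WT Ang II (SE 0.30, limma adjusted p = 0.796).

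Ptger4 (chr15:5206661-5244187, minus strand) encodes EP4, a prostaglandin E receptor that raises cyclic AMP. It was 2.60, 2.07, 4.76, 2.38 and 2.96 FPKM in KO Ang II aortas. WT Ang II aortas had 2.36, 7.59, 2.32, 2.52 and 2.22 FPKM, against 2.53, 3.44, 2.02, 2.49 and 2.97 FPKM in WT saline aortas. WTAng_II536, the highest for Ptgs1, was also the highest for Ptger4, and KOAngII560 was next for both. The difference was -0.07 between KO and WT Ang II (95% interval -0.63 to 0.49, limma adjusted p = 0.951) and 0.15 between WT Ang II and WT saline (-0.41 to 0.70, adjusted p = 0.956). Without WTAng_II536 they were 0.20 and -0.13. Which of the 2 coding transcripts, which differ at their 5′ part, carried the sum also differed between animals. Ptger4-201 was 4.54 FPKM and 95.5% of the sum in KOAngII560 and 97.1% in WTAngII568, whereas Ptger4-202 was 6.21 FPKM and 81.9% in WTAng_II536. Ptger4-201 was also the larger part in WTAng_II519 (64.6%) and WTAngII581 (61.3%). In WT saline aortas Ptger4-202 made up 66.5% to 100% of the sum. The median share of Ptger4-201 was 28.7% in KO Ang II, 61.3% in WT Ang II and 20.6% in WT saline. Its level differed by 0.64 between WT Ang II and WT saline (SE 0.34, limma adjusted p = 0.928), which did not pass. Between KO and WT Ang II it differed by -0.09 (SE 0.34, limma adjusted p = 0.961).

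Several prostanoid genes followed cell type markers from animal to animal. Each of the 9 genes was set against the mean log2(FPKM + 1) of 14 marker lists over the 15 aortas, 126 relations in all, with permutation p-values adjusted over these. Both genes and lists were chosen with earlier results of these data known. By Pearson's r 6 of the 126 passed, 1 each for Ptgs1, Ptger4, Tbxas1 and Ptgis and 2 for Ptger3, and 4 of these are described. A further 2 of the 16 lists, mesothelium and T and NK cells, had 0 genes at a mean of 1 FPKM or more and were left out. Both values of a point come from the same library, with its depth and its piece of tissue. Ptgs1 tracked endothelial markers (r = 0.86, adjusted p = 0.00819; rho = 0.80, adjusted p = 0.0183; permutation tests). Ptger4 followed the same list (r = 0.81, adjusted p = 0.0256; rho = 0.78, adjusted p = 0.0247; permutation tests). Endothelial markers, 10 of 10 measured, summed to 189 to 379 FPKM in KO Ang II, 259 to 681 in WT Ang II and 214 to 471 in WT saline, with WTAng_II536 highest and KOAngII612 lowest of the 15. Without the 2 aortas farthest from the median of that list, libraries WTNS_373 and WTAng_II536, r was 0.70 for Ptgs1 and 0.58 for Ptger4. With values centred on their group means r was 0.86 and 0.81. Ptger4 also had r of 0.80 with the megakaryocyte and platelet list, which did not pass (adjusted p = 0.0637, permutation test). Its rho with that list was 0.39 (adjusted p = 0.639, permutation test). WTAng_II536 was the highest aorta for that list too. Ptgs2 ran against the endothelial list, with r of -0.71 that did not pass (adjusted p = 0.0679) and rho of -0.80 that did (adjusted p = 0.0183, permutation tests).

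Tbxas1 followed the macrophage list, with the highest r of the 126 (r = 0.86, adjusted p = 0.0063; rho = 0.86, adjusted p = 0.0126; permutation tests), and r was 0.83 without libraries WTAngII581 and WTNS_373 and 0.77 with values centred on group means. It did not follow the megakaryocyte and platelet list (r = 0.17). Ptger3 followed the sympathetic neuron list (r = 0.80, adjusted p = 0.0113; rho = 0.71, adjusted p = 0.0733; permutation tests), where Pearson's r passed and Spearman's rho did not. Without libraries KOAng_II402 and KOAngII537 the r with the sympathetic neuron list was 0.71. Ptgis had r of 0.47 with smooth muscle and -0.48 with endothelial markers, and these 2 relations did not pass. Without libraries WTAng_II519 and WTNS_373 the first was 0.26. Without libraries WTNS_373 and WTAng_II536 the second was 0.13, the opposite sign. Ptges, Ptgir and Ptgfr had no relation that passed.

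**Figure D4:**
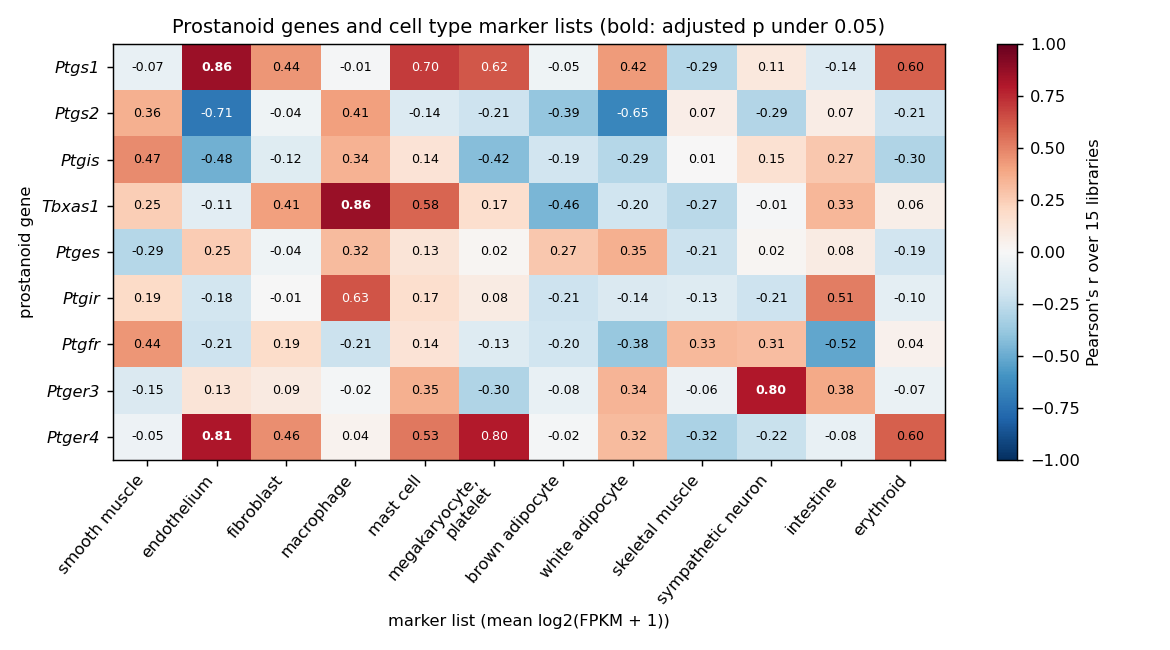
Pearson's r over 15 aortas between each prostanoid gene (rows) and the mean of 12 of the marker lists (columns), both as log2(FPKM + 1); red is positive, blue negative, and bold marks an adjusted permutation p under 0.05 over 126 relations. The 4 bold cells belong to Ptgs1, Ptger4, Tbxas1 and Ptger3; the 2 other relations that passed, 1 of Ptgis and 1 of Ptger3, are with lists that are not drawn.

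**Figure D5:**
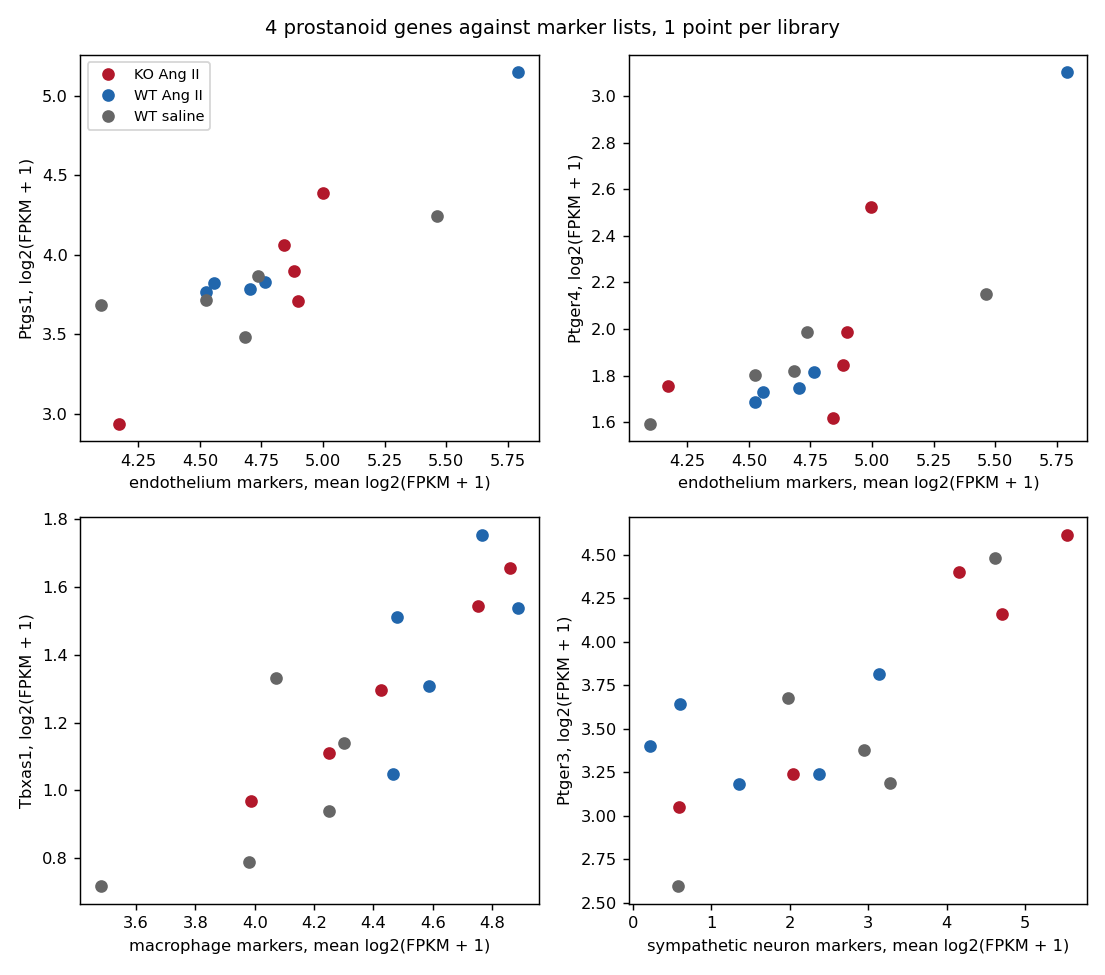
Ptgs1 and Ptger4 against endothelial markers, Tbxas1 against macrophage markers and Ptger3 against sympathetic neuron markers (both axes log2(FPKM + 1), 1 point per aorta, KO Ang II red, WT Ang II blue, WT saline grey). In the upper panels the WT Ang II aorta at the far right is WTAng_II536; in the lower left panel the WT saline aortas lie toward the low end of the macrophage axis.

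Among the 36 pairs of prostanoid genes 1 passed by Pearson's r, Ptgs1 with Ptger4 (r = 0.81, adjusted p = 0.0367; rho = 0.53, adjusted p = 0.425; permutation tests). It was 0.68 without libraries KOAngII612 and WTAng_II536, and the rank correlation did not pass.

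The genes with the most similar pattern over the 15 aortas were named for each of the 9 by Pearson's r of log2(FPKM + 1), with no test. For Ptgs1 they were Pkhd1l1 (0.94), Ptprb (0.92), an endothelial phosphatase, and Vwf (0.91), von Willebrand factor. For Ptger4 they were Ldb2 (0.93), Mmrn2 (0.90), a matrix protein of endothelium, and Ephb4 (0.90), a venous ephrin receptor. For Ptgs2 they included Arf4 (0.94), a GTPase of Golgi traffic, and Sec61a1 (0.92), a subunit of the protein channel of the endoplasmic reticulum. For Tbxas1 they were Csf1r (0.89), the receptor of macrophage growth factor, Laptm5 (0.88), a lysosomal protein of blood cells, and Ptafr (0.88), the receptor of platelet-activating factor. Csf1r is in the macrophage list and Vwf in the endothelial one. For Ptger3 they were Cdkl2 (0.93), Cmtm5 (0.92) and Ndn (0.91), and for Ptgir they were Alox5 (0.87), the enzyme that opens leukotriene synthesis, Mfsd5 (0.81) and Casp9 (0.79). For Ptgfr they were Napepld (0.87), which makes lipid amides, Arhgap44 (0.80) and Has3 (0.79). For Ptgis (Cfap97, 0.84) and Ptges (Pcsk4, 0.79) the highest r was lower.

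The other genes of prostanoid metabolism and signalling were taken from a list of 25, of which 21 were listed and 16 tested; Pla2g10, Ptgdr, Ptgdr2 and Ptger2 had no listed transcript. In each of the 3 comparisons 0 of 16 passed limma's adjusted threshold. Between KO and WT Ang II 2 of 16 had an unadjusted p under 0.05, against 7.95% of all genes tested, and the median difference was 0.12. Pla2g5, a secreted phospholipase that frees arachidonic acid, averaged 0.944 ± 0.970 FPKM in KO Ang II and 2.47 ± 0.638 in WT Ang II (SD, n = 5 each), a difference of -0.97 (SE 0.30, limma adjusted p = 0.605), and its difference between KO Ang II and WT saline was -0.95 (adjusted p = 0.377). Ptges3, a chaperone protein also known as cytosolic prostaglandin E synthase, averaged 24.3 ± 4.15 FPKM in KO Ang II and 31.8 ± 2.29 in WT Ang II without overlap, as for 1.12% of all genes tested, a difference of -0.39 (SE 0.15, adjusted p = 0.620). Between WT Ang II and WT saline 3 of 16 had an unadjusted p under 0.05, against 4.88% of all genes: Ptgfrn, a membrane protein that restrains the prostaglandin F receptor, at 0.48, Cbr1, a carbonyl reductase, at -0.37 and Pla2g6, a calcium-independent phospholipase, at -0.63 (limma adjusted p = 0.940 for each). In KO Ang II against WT saline there were also 3 of 16, against 8.38% of all genes: Pla2g5, the aldo-keto reductase Akr1b8 at 0.49 (limma adjusted p = 0.485) and the prostaglandin F synthase Fam213b at 0.44 (adjusted p = 0.550).

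The thromboxane receptor Tbxa2r averaged 7.22 ± 1.40 FPKM in KO Ang II, 10.4 ± 3.58 in WT Ang II and 7.43 ± 1.68 in WT saline (SD, n = 5 each). It differed by -0.43 between KO and WT Ang II (95% interval -0.89 to 0.03, limma adjusted p = 0.629) and by 0.40 between WT Ang II and WT saline (-0.06 to 0.86, adjusted p = 0.940). Cytosolic phospholipase Pla2g4a averaged 15.9 ± 7.58 FPKM in KO Ang II, where the highest aorta was at 29.3, 16.4 ± 3.79 in WT Ang II and 15.2 ± 4.81 in WT saline, differing by -0.10 between KO and WT Ang II (-0.71 to 0.51, adjusted p = 0.934). The breakdown enzyme Hpgd averaged 5.83 ± 2.76 FPKM in KO Ang II, 7.34 ± 2.49 in WT Ang II and 5.14 ± 1.11 in WT saline, with no difference that passed.

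Of 28 G proteins and cyclic AMP or calcium effectors, all tested, 0 passed limma's adjusted threshold in any comparison, and 2, 3 and 0 of the 28 had an unadjusted p under 0.05 between KO and WT Ang II, WT Ang II and WT saline, and KO Ang II and WT saline, against 7.95%, 4.88% and 8.38% of all genes. Itpr1, the calcium release channel of the endoplasmic reticulum, averaged 5.23 ± 2.11 FPKM in KO Ang II, 8.26 ± 2.17 in WT Ang II and 4.88 ± 0.421 in WT saline (SD, n = 5 each). It differed by -0.61 between KO and WT Ang II (limma adjusted p = 0.620) and, without overlap of the groups, as for 0.997% of all genes, by 0.63 between WT Ang II and WT saline (adjusted p = 0.939); WT Ang II aortas enter both. The cyclic AMP phosphodiesterase Pde4d averaged 6.61 ± 2.50 FPKM in WT Ang II and 13.2 ± 4.59 in WT saline, a difference of -0.90 (SE 0.24, unadjusted p = 0.00243, limma adjusted p = 0.878), and Adcy9, an adenylyl cyclase, differed by -0.32 in the same comparison (adjusted p = 0.940). Pde3a, another phosphodiesterase, differed by -0.48 between KO and WT Ang II (adjusted p = 0.620). Of 11 lipoxygenase and leukotriene genes 8 were listed and 7 tested, and 0 of 7 passed, with 1, 0 and 0 of the 7 at an unadjusted p under 0.05 in those comparisons, beside the same shares of all genes. The platelet-type lipoxygenase Alox12 averaged 1.34 ± 0.470 FPKM in KO Ang II and 3.08 ± 2.03 in WT Ang II, a difference of -0.68 (SE 0.29, limma adjusted p = 0.620).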

How the data were processed

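RNA of 20 mouse abdominal aortas was sequenced. The deposited tables give FPKM per transcript, as the authors computed it; the unit was read from the values. Per the submitters' processing notes bcl2fastq, FastQC, fastp and mm10 were used, without versions; which aligner and quantifier were used is not given in the sources used. TRIzol extraction and a NEBNext Ultra RNA kit are named per the labels' protocols.

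Ensembl transcripts were named with GENCODE M21 (GRCm38, the assembly of mm10) and FPKM were added up per gene; a transcript that a table did not list was taken as 0. Transcripts without a match in GENCODE M21 took 12.3% to 15.9% of the FPKM sum and were assigned to no gene. They hold those that the authors assembled, named MERGE, and a few Ensembl ones. Of the Ensembl transcripts, 32603 of 32654 matched in the WT tables and 32894 of 32945 in the KO Ang II table. Values below 50 reads fell within 0.05 of a whole read in 98.7% to 99.1% of cases, which gave the depth. Genes in both the WT and KO Ang II tables averaging 1 FPKM or more over 15 libraries (12635) were fitted with limma 3.58.1 in R 4.3.3 (trend and robust) on log2(FPKM + 1), which understates differences of low genes, with Benjamini-Hochberg adjustment over all genes. Transcripts were fitted likewise. The fit was tested on simulated data with normal noise, where changes were added only to genes with a within-group SD under the median. That test does not show how well changes are found in Ptgis, Ptgs2, Ptges, Ptger3, Ptgs1 and Ptger4, which lie above it. Correlations used 100000 permutations (Python 3.11.15, scipy 1.17.1). Replicates are separate animals.

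Members, gene lists and marker lists were chosen with earlier results of these data known. Named were the members, genes of the pathway lists with an unadjusted p under 0.05 in any comparison (with none, the 4 highest), and the 3 genes most like each member; Tbxa2r, Pla2g4a, Hpgd and Ptger1 were named after their values were seen. Results for 1 similar gene and for 2 marker lists, which hold 2 of the 6 relations that passed, are not reported here. Other pseudocounts, filters, scalings, weights, a voom fit and omitted libraries were tried.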

Additional observations from a re-analysis of the deposited data

Results flagged for a closer look

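In groups of 5, a library was singled out when its gap to the nearest other took more than 0.71 of the group's range (Dixon's 95% value). In normally distributed values chance does so in about 1 in 20 groups. The rule was applied to FPKM, for which that share was not worked out. Of 27 groups of gene values, 3 were singled out: Ptgs1 at 34.49 FPKM in WT Ang II WTAng_II536, where the other 4 were at 12.6 to 13.2, Ptger4 at 7.588 FPKM in the same animal, where the other 4 were at 2.22 to 2.52, and Ptgs2 at 13.23 FPKM in KO Ang II KOAngII612, where the other 4 were at 0.916 to 2.58. Of 24 groups of transcript values, all of Ptgis, Ptger3 and Ptger4, 3 were singled out. Ptgis-202, the transcript with the downstream last exon, was at 10.57 FPKM in WT saline WTNS_369, with the others at 0 to 1.33. Ptger4-201 was at 4.542 FPKM in KO Ang II KOAngII560, with the others at 0.433 to 1.18. The retained intron transcript Ptger3-203 was at 10.38 FPKM in WT saline WTNS_523, with the others at 2.04 to 3.66. WTAng_II536 also had the highest endothelial, mast cell, megakaryocyte and platelet, and erythroid marker sums of all libraries compared. WTNS_523 had the highest sympathetic neuron marker sum of its group. The part of any of these lists in these values was not tested.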

How the results depend on the processing

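No prostanoid gene or transcript passed under any alternative run; the smallest adjusted p was 0.251 (Ptgfr, KO Ang II against WT saline, with sample quality weights). For genes, 11 of 198 values for KO against WT Ang II, 18 of 198 for WT Ang II against WT saline and 13 of 189 for KO Ang II against WT saline had the opposite sign of the reported difference; their cause was not tested. For Ptger3 in WT Ang II against WT saline (-0.006), these were 0.00429 with a pseudocount of 0.1, 0.057 with equal library sums, 0.035 with quality weights, 0.015 with voom and 0.226 with marker covariates. For Ptgs2 in KO against WT Ang II they were -0.026 with a pseudocount of 0.1 (also Ptgs2-201), -0.038 with equal sums, -0.278 with weights, -0.036 with voom and -0.045 without libraries WTAngII580 and WTAngII581. For Ptgs1 in KO Ang II against WT saline (-0.0006) they were 0.00575 with quantile normalization, 0.122 with weights, 0.052 with voom and 0.018 without animals numbered below 500. For Ptgis in WT Ang II against WT saline they were -0.110 with weights and -0.234 without animals below 500. Marker covariates gave -0.127 for Ptgs2 in WT Ang II against WT saline, -0.101 for Ptger3 in KO against WT Ang II and -0.020 for Ptger4 in KO Ang II against WT saline. Ptges was -0.097 in WT Ang II against WT saline without libraries WTAngII580 and WTAngII581 and 0.089 in KO Ang II against WT saline without animals below 500, and Ptger4-202 was 0.161 in KO against WT Ang II with a pseudocount of 0.1.

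Leaving out 1 library at a time gave these ranges. In KO against WT Ang II they were -0.448 to 0.275 for Ptgs2 and Ptgs2-201, -0.215 to 0.201 for Ptger4, -0.133 to 0.484 for Ptgis-201, -0.337 to 0.353 for Ptger4-202, -0.318 to 0.020 for Ptgs1-202 and -0.424 to 0.064 for Ptger4-201. In WT Ang II against WT saline they were -0.203 to 0.466 for Ptgis, -0.223 to 0.249 for Ptger3, -0.126 to 0.228 for Ptger4, -0.204 to 0.134 for Ptgs1-202, -0.106 to 0.370 for Ptger3-203, -0.054 to 0.672 for Ptgis-201, -0.139 to 0.124 for Ptgis-203 and -0.221 to 0.180 for Ptger3-202. In KO Ang II against WT saline they were -0.149 to 0.215 for Ptgs1, -0.481 to 0.00241 for Ptges and Ptges-202, -0.069 to 0.158 for Ptger4, -0.105 to 0.633 for Ptgs2 and Ptgs2-201 and -0.085 to 0.284 for Ptgs1-201.

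Over all genes, KO Ang II against WT saline gave 13 calls, 30 with quality weights, 0 without animals below 500, 0 with marker covariates and 7 to 15 with 1 library left out (7 without KO Ang II KOAngII537 and 8 without WT saline WTNS_547). KO against WT Ang II gave 0 calls, 15 without libraries WTAngII580 and WTAngII581, and 0 to 7 with 1 library left out (7 without WT Ang II WTAngII580). Libraries WTAngII580 and WTAngII581 were left out together for their intestinal marker sums, the highest of WT Ang II. WT Ang II against WT saline gave 0, and 0 to 1 with 1 left out. No paired analysis was possible because each animal number belongs to 1 library. Correlations with marker lists were also recomputed with settings chosen after seeing the data. At the lowest levels 1 gene value rested on as few as 89.0 reads (Ptgir).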

Other observations

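Values that enter no comparison: Ptger1, the prostaglandin E receptor that couples to calcium release, was listed in the KO Ang II table alone, at 0.00606 to 1.18 FPKM, and was not tested.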
